A study of Mus musculus with 6 samples.

Results

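Toll-like receptors are germline-encoded sensors that recognise molecules of microbes and of damaged tissue. Those on the cell surface (Tlr1, Tlr2, Tlr4 and Tlr6) bind lipids and lipoproteins, and those in endosomes (Tlr3, Tlr7, Tlr9 and Tlr13) bind nucleic acids. Cd14 hands lipopolysaccharide to Tlr4, and the adaptor Myd88 carries the signal of the receptors described here other than Tlr3 to NF-kB, while Tlr3 signals through the adaptor Ticam1. In the central nervous system microglia and infiltrating myeloid cells are the main carriers of most of these receptors, and astrocytes are known to express Tlr3.

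The 10 genes described are these 8 receptors with Cd14 and Myd88. They were taken by gene name from 29057 genes with at least 1 isoform of a reference class in the deposited isoform table, and the names were chosen with earlier results of these data known. RNA was sequenced from the spinal cords of C57BL/6 males (an inbred strain) at 8 weeks of age. In the TSCI group the T8 to T10 vertebral arch was opened and a moderate traumatic injury was set with a dropped weight. In the sham group the arch was opened without injury, so laminectomy is shared by both groups. Each group had 3 libraries; 48 mice in sets of 8 are named, but not whether a set was pooled, nor the time after injury, so p-values measure only the spread between these libraries.

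The libraries held 4.46 to 9.16 gigabases of aligned sequence. Intronic isoforms took 9.8% of it in TSCI replicate 1 and 10.2% in sham replicate 1, which were run on lane 8, against 2.0% to 3.8% in the others. Sham replicate 2 was alone on lane 3, and the remaining libraries were on lane 1. It therefore enters no within-lane value below, and lane 8 as a covariate treats lanes 1 and 3 alike. It also had the most genes at 0, 13207 against 4863 to 8776 in the others. The 10 genes of highest level took 12.8% to 55.7% of the summed FPKM (fragments per length of transcript and library size), which differed between libraries. The tissue label was checked against 6 position genes of the trunk cord (Hoxa7, Hoxb8, Hoxc8, Hoxc9, Hoxa9 and Hoxd8), which summed to 11.2 to 49.7 FPKM in TSCI and 13.4 to 49.8 in sham. The neuron markers summed to 364 to 739 FPKM in TSCI and 272 to 974 in sham.

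Stretches of upstream sequence are shown for Tlr13, which passed the test below, and for Tlr2 and Myd88, which lay near each other in fold change, so that the letters before their starts can be read beside the values. They come from the RefSeq promoter table (GRCm38.p6), which held 7 of the 10 genes; Tlr4, Tlr7 and Cd14 had no entry. The stretches of Tlr2 and Tlr13 end just before the first annotated base of the gene. That of Myd88 lies within the annotated gene, just before the start of its coding isoform of 1960 bases, while other isoforms of Myd88, the assembled one of 1937 bases among them, start farther upstream. All are written 5′ to 3′ on the gene's strand. Capitals mark matches, on either strand, to 4 motifs: the NF-kB consensus, the myeloid factor motif GAGGAA, the interferon-responsive motif GAAA, any 2 bases and GAAA, and the AP-1 motif TGANTCA.
Tlr2 (chr3:83841768-83841858, minus strand): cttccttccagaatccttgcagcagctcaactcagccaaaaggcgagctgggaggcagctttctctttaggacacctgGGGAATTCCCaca
Tlr13 (chrX:106143025-106143203, plus strand): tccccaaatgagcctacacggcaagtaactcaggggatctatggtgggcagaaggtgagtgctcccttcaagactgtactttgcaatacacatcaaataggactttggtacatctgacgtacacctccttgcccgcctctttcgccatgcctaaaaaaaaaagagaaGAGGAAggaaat
Myd88 (chr9:119340042-119340268, minus strand): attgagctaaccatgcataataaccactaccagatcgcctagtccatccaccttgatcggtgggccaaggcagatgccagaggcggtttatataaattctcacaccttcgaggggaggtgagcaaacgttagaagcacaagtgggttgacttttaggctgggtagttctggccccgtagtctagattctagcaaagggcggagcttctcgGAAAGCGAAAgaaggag
The Tlr2 stretch held 1 NF-kB match, the Tlr13 stretch 1 GAGGAA and the Myd88 stretch 1 interferon-responsive motif, with no overlap between motifs. Among all 32851 promoters of the table, read over the 250 bases before the start, 5.0% held the NF-kB consensus, 23.3% GAGGAA, 3.0% the interferon-responsive motif and 6.7% TGANTCA. Over the same 250 bases Tlr3, whose group means did not differ (below), also held 1 NF-kB match. For Tlr1, 1 entry held GAGGAA and another held no match. Tlr6 held the interferon-responsive motif in 1 entry and no match in another, and Tlr9 held GAGGAA and TGANTCA. A match describes these letters only and is no evidence of binding.

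The comparison of injured with sham cord asked how the receptors and their shared partners differed after the injury. Cd14 and Tlr13 were higher in TSCI by the test across all genes. Of the 10 genes, 7 had every TSCI library above every sham library, and these were Cd14, Tlr1, Tlr2, Tlr4, Tlr7, Tlr13 and Myd88; the same held for 13.4% of all 16740 genes tested. Tlr3, Tlr6 and Tlr9 overlapped between the groups. Only 8 of the 10 reached the mean of 0.5 FPKM needed for testing, Tlr6 and Tlr9 did not, and Tlr1, Tlr4 and Tlr7 had a sham mean under 0.5 FPKM and so passed through their TSCI values. The share of genes called higher was 0.878% and that called lower 0.0119%, and among the 8 tested 2 were called higher and none lower (limma). At an unadjusted p under 0.05, 6 of the 8 were higher and none lower, against 10% and 1.76% of all genes tested. The log2 fold change was above 0 in 7 of the 8, as in 69.9% of all genes tested.

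**Figure D1:**
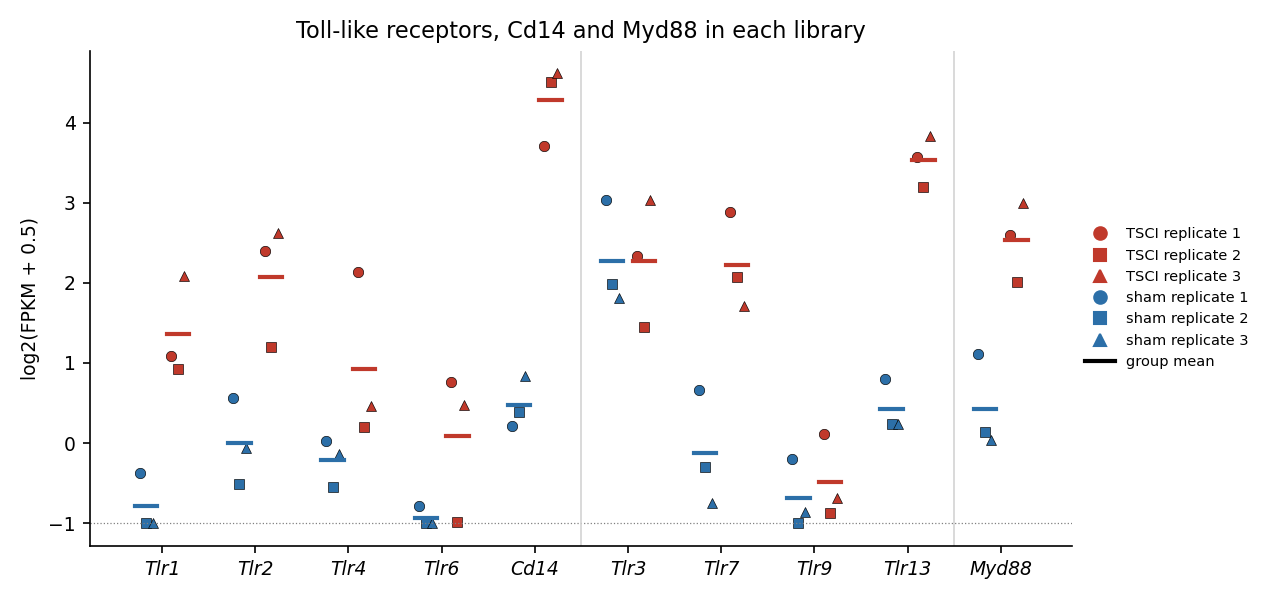
Level of each gene in each library, as log2(FPKM + 0.5), with sham in blue, TSCI in red, the replicate number by symbol and group means as bars; the dotted line is a value of 0 FPKM. Surface receptors with Cd14 are on the left, endosomal receptors in the middle and the adaptor Myd88 on the right, and 7 of the 10 genes have every red point above every blue point.

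Cd14, the co-receptor for lipopolysaccharide on monocytes, macrophages and microglia, was called higher in TSCI. It lies on chromosome 18, 36725067 to 36726798 (ENSMUSG00000051439; gene positions from GENCODE M21, GRCm38). Its level was 12.6, 22.2 and 24.0 FPKM in TSCI replicates 1 to 3 and 0.658, 0.805 and 1.29 FPKM in sham replicates 1 to 3. The lowest TSCI library thus stood far above the highest sham library, and the means differed 21.4-fold (19.6 ± 6.15 against 0.918 ± 0.331, SD, n = 3 each). On the log2(FPKM + 0.5) scale, which understates changes of low genes, the fold change was 3.80 ± 0.64 (SE; limma, adjusted p = 0.0163). It was 3.50 within lane 8, with 1 library of each group, and 3.72 within lane 1, with 2 TSCI libraries and 1 sham library. A single annotated isoform of 1572 bases carried the whole value.

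Tlr13, which in mice senses bacterial ribosomal RNA and is absent from humans, was the only receptor called. It lies on chromosome X, 106143204 to 106160493 (ENSMUSG00000033777). Its level was 11.3, 8.70 and 13.8 FPKM after injury against 1.24, 0.680 and 0.676 in sham. The groups were far apart, with means of 11.3 ± 2.53 and 0.866 ± 0.325 (SD, n = 3 each). The log2 fold change was 3.11 ± 0.64 (SE; limma, adjusted p = 0.0372), with 2.77 within lane 8 and 3.28 within lane 1. The protein-coding isoform of 4060 bases held 11.3, 7.37 and 12.9 FPKM of it in TSCI, and the aligned sequence behind Tlr13 was 205 to 482 kilobases in TSCI libraries and 13.3 to 29.9 in sham libraries.

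Both calls rested on few libraries. Without TSCI replicate 2 or 3 the adjusted p of Cd14 was 0.0682 and 0.189 (limma), and with median-ratio scaling or quantile normalization it was 0.0521 and 0.0548. For Tlr13 it was 0.132, 0.108 and 0.325 without TSCI replicates 1 to 3, 0.0946 and 0.155 without sham replicates 2 and 3, and 0.0753 from annotated isoforms only. With no filter on low values the adjusted p was 0.178 for Cd14 and 0.209 for Tlr13, and with all isoform classes summed it was 0.0722 and 0.15 (limma). In all of these the log2 fold changes stayed at 3.28 to 3.83 for Cd14 and 2.96 to 3.28 for Tlr13.

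The surface receptors were led by Tlr2, which pairs with Tlr1 or Tlr6 to bind bacterial lipopeptides. Tlr2 (ENSMUSG00000027995, chromosome 3, 83836272 to 83841767) was at 4.76, 1.79 and 5.68 FPKM after injury against 0.983, 0.202 and 0.461 in sham. All TSCI values lay above the sham values, TSCI replicate 2 nearest to them, and the fold change (log2, 2.07 ± 0.69, SE) did not pass by limma, with an adjusted p of 0.211. Tlr1 (ENSMUSG00000044827, chromosome 5, 64924679 to 64933563) was at 1.63, 1.39 and 3.76 FPKM in TSCI, and in sham at 0.275 in replicate 1 and listed at 0 in the other replicates. Its log2 fold change was 2.16 ± 0.64 (SE; limma, adjusted p = 0.148). Tlr6 (ENSMUSG00000051498), its neighbour on chromosome 5 at 64952031 to 64960097, was at 1.20, 0.007 and 0.891 FPKM after injury against 0.079, 0 and 0 in sham. TSCI replicate 2 thus lay within the sham range, while the other TSCI libraries lay above it. Of the 2995 sequences of 31 bases in the longest coding transcript of Tlr1, 20.1% also occur in that of Tlr6, and no other pair of the 10 genes shared any, so the split of reads between Tlr1 and Tlr6 is uncertain.

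Tlr4, the lipopolysaccharide receptor (ENSMUSG00000039005, chromosome 4, 66827584 to 66930284), differed less. It was at 3.88, 0.650 and 0.875 FPKM after injury against 0.521, 0.185 and 0.412 in sham. TSCI replicate 1 stood apart, and the other TSCI libraries were close to the highest sham library. The log2 fold change was 1.15 ± 0.69 (SE, 95% interval -0.33 to 2.63; limma, adjusted p = 0.56), with 2.10 within lane 8 and 0.46 within lane 1. Without TSCI replicate 1 it was 0.55.

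Among the endosomal receptors, Tlr7 senses single-stranded RNA and Tlr9 unmethylated DNA. Tlr7 (ENSMUSG00000044583, chromosome X, 167304929 to 167330558) was at 6.86, 3.71 and 2.79 FPKM after injury against 1.09, 0.312 and 0.097 in sham, a log2 difference of 2.35 ± 0.69 (SE) with an adjusted p of 0.142 by limma. With lane 8 as a covariate its adjusted p was 0.0286 (limma). The groups did not overlap, but in TSCI replicate 3 an isoform of 366 bases gave 2.52 of the 2.79 FPKM. From isoforms of at least 500 bases, a restriction chosen after seeing the data, that library was at 0.266 FPKM, within the sham range, and the log2 fold change was 1.60 (limma, adjusted p = 0.43). Tlr9 (ENSMUSG00000045322, chromosome 9, 106222598 to 106226883) was the lowest of the 10 genes in TSCI, at 0.581, 0.044 and 0.121 FPKM, and at 0.369, 0 and 0.049 in sham. Its groups overlapped, and at most 9.01 kilobases of aligned sequence lay behind any of these values.

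Tlr3, the sensor of double-stranded RNA (ENSMUSG00000031639, chromosome 8, 45395665 to 45411080), had no difference between the group means. It was at 4.53, 2.24 and 7.72 FPKM after injury against 7.71, 3.47 and 3.00 in sham, so the groups covered nearly the same range. The means were 4.83 ± 2.75 and 4.73 ± 2.59 FPKM (SD, n = 3 each). The log2 fold change was 0.00 with a 95% interval of -1.49 to 1.49 (limma, adjusted p = 1), which leaves room for changes of either sign. Within lane 8 it was -0.71 and within lane 1 0.44.

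Myd88, the adaptor of these receptors and of the interleukin-1 receptor (ENSMUSG00000032508, chromosome 9, 119335934 to 119341411), was at 5.55, 3.53 and 7.49 FPKM after injury against 1.66, 0.596 and 0.531 in sham. Every TSCI library was above every sham library. The means were 5.52 ± 1.98 and 0.93 ± 0.636 FPKM (SD, n = 3 each), and the fold change (log2, 2.11 ± 0.67, SE) did not pass by limma, with an adjusted p of 0.192. Without sham replicate 1, which was the highest sham library for Myd88, Tlr1, Tlr2 and Tlr7, the adjusted p of these 4 genes was 0.0277, 0.0406, 0.0396 and 0.0174 (limma), and 6 of the 8 tested genes passed. In that setting 7.28% of all genes tested were called higher, against 0.878% with all libraries. Tlr1, Tlr2 and Tlr7 then had a sham mean under 0.5 FPKM and so passed the filter through TSCI.

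**Figure D2:**
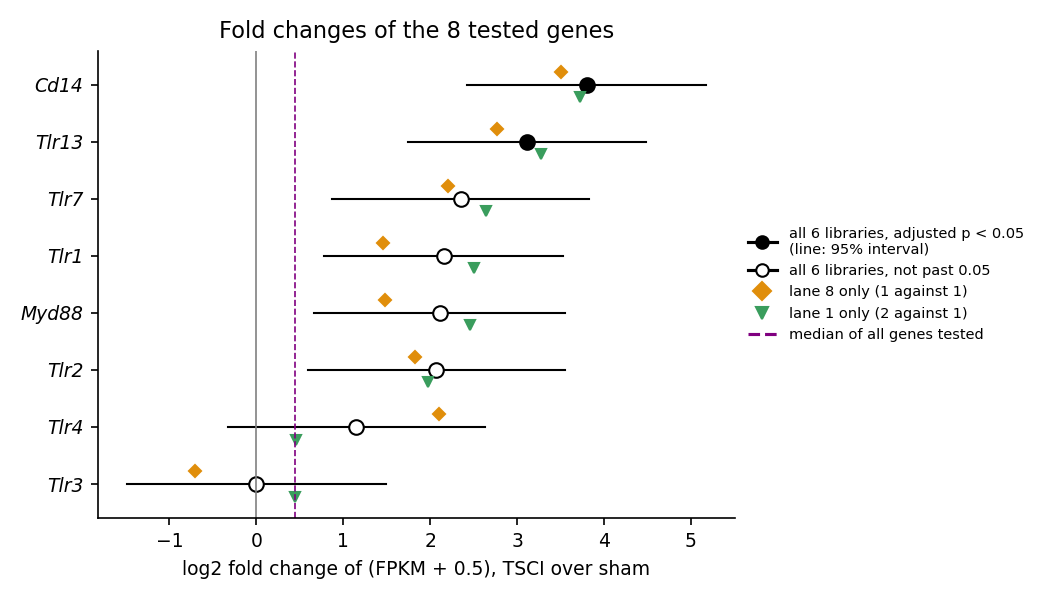
Log2 fold change of (FPKM + 0.5), TSCI over sham, of the 8 tested genes, with 95% intervals; filled circles passed an adjusted p of 0.05, diamonds and triangles are the values within lanes 8 and 1, and the dashed line is the median of all genes at 0.44. Cd14 and Tlr13 stand at the top with both lanes close to the pooled value, and Tlr3 sits at 0 with the lanes on either side.

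All fold changes are as deposited, where the median of all genes tested was 0.44 on the log2 scale; median-ratio scaling brought this to 0.06 and quantile normalization to -0.03. Relative to the median as deposited, Cd14 was 3.36 higher, Tlr13 2.67, Tlr7 1.91, Tlr1 1.72, Myd88 1.67, Tlr2 1.63 and Tlr4 0.71, and Tlr3 was 0.44 lower. Under both scalings the fold changes of the 7 genes with positive values stayed positive, and Tlr3 was at -0.42 and -0.52.

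The order of the receptors differed between the groups. In each sham library Tlr3 was the highest of the 8 receptors, with 62.9% to 71.6% of their summed FPKM, and Tlr13 held 10.1% to 14.4%. In each TSCI library Tlr13 was the highest, with 32.6% to 47.0%, and Tlr3 held 12.1% to 21.7%. Tlr2 took 4.2% to 9.8% in sham and 9.7% to 16.0% in TSCI, and Tlr7 2.1% to 8.9% in sham and 7.8% to 20.0% in TSCI. The shares of Tlr1, Tlr3 and Tlr13 did not overlap between the groups, while those of Tlr2, Tlr4, Tlr6, Tlr7 and Tlr9 did. The summed level of the 8 receptors was 34.8, 18.5 and 35.6 FPKM after injury against 12.3, 4.85 and 4.69 in sham. These shares are descriptive, and no test was made over the 8 receptors together. In TSCI the group means ran from Cd14 at 19.6 FPKM and Tlr13 at 11.3 through Myd88 (5.52), Tlr3 (4.83), Tlr7 (4.45) and Tlr2 (4.08); the last 4 did not differ beyond their spread. In sham, below Tlr3, the means of Myd88 (0.93), Cd14 (0.918) and Tlr13 (0.866) were within the spread of each other.

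**Figure D3:**
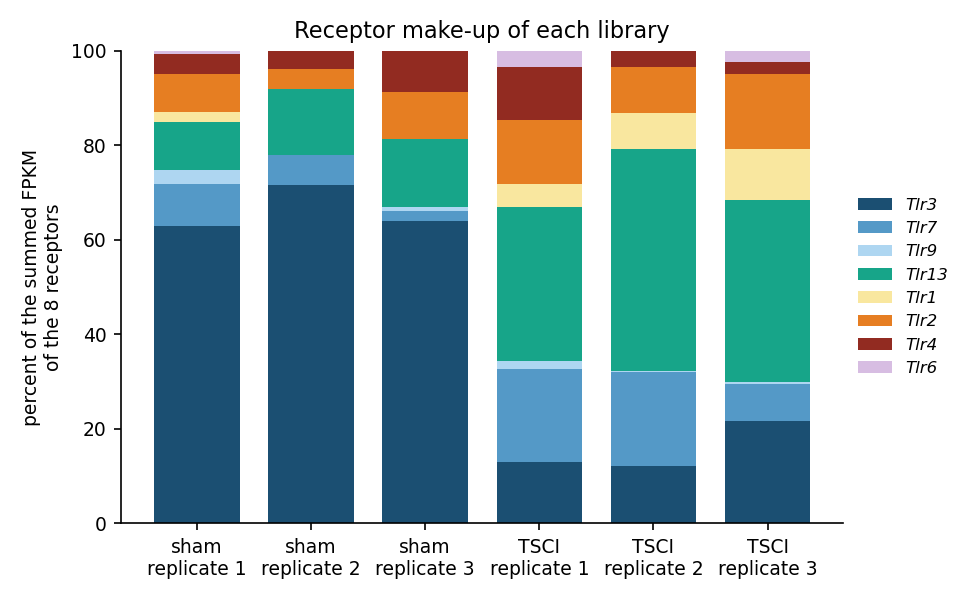
Share of each receptor, in percent, in the summed FPKM of the 8 receptors, 1 bar per library. Tlr3 (dark blue) fills 62.9% to 71.6% of the sham bars, and Tlr13 (green) is the largest part of each TSCI bar with 32.6% to 47.0%.

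Isoforms were then examined, since the gene values sum over them. Of the isoforms of the 10 genes, 13 were tested and none passed an adjusted p of 0.05 by limma, though 3 were higher at an unadjusted p under 0.05, against 5.1% higher and 1.25% lower of all isoforms; over all 40383 isoforms tested 0.0322% were called higher and 0.00248% lower. In 4 of the 13 every TSCI library lay above every sham library, against 9.02% of all isoforms tested. The 3 at that p were the coding isoforms of Cd14 (log2 fold change 3.80 ± 0.85, SE), of Tlr13 (3.01 ± 0.84) and of Tlr1 (2.14 ± 0.82, 2783 bases). The last was at 1.63, 1.31 and 2.30 FPKM in TSCI and listed at 0 in each sham library. That Tlr1 isoform, and the Tlr4 isoform of 4077 bases among the 4 (sham mean 0.373 FPKM), passed the filter of 0.5 FPKM through their TSCI values. The same held for most of the 13, so these counts describe them only. For Tlr1, Tlr2, Tlr3, Tlr7 and Myd88 the isoform with the highest value was not the same in every library. Myd88 in TSCI replicates 1 and 2 was mainly the coding isoform of 1960 bases, at 5.55 and 3.34 FPKM. In TSCI replicate 3 that isoform was listed at 0 and an assembled isoform of 1937 bases with a new junction was at 7.41. In sham replicates 2 and 3 an isoform with a retained intron gave 0.596 and 0.531 FPKM, the whole Myd88 value. Tlr2 was an assembled isoform of 3094 bases in the sham libraries (0.983, 0.202 and 0.461 FPKM) and in TSCI replicates 1 and 3 (4.76 and 4.20), and the annotated isoform of 3014 bases in TSCI replicate 2 (1.79). Tlr7 was mainly an isoform of 3776 bases in TSCI replicate 1 (6.21 FPKM), one of 3897 bases in TSCI replicate 2 (3.55), and the one of 366 bases in TSCI replicate 3. Tlr1 in sham replicate 1 was a coding isoform of 3025 bases, at 0.275 FPKM. Tlr3 was led by the coding isoform of 4407 bases in the other libraries, but in TSCI replicate 3 an assembled isoform of 4363 bases stood at 2.69 FPKM beside it at 2.42, and in sham replicate 2 one of 4478 bases was level with it at 1.74. From annotated isoforms only, the log2 fold change was 1.39 for Tlr2 and 0.85 for Myd88.

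**Figure D4:**
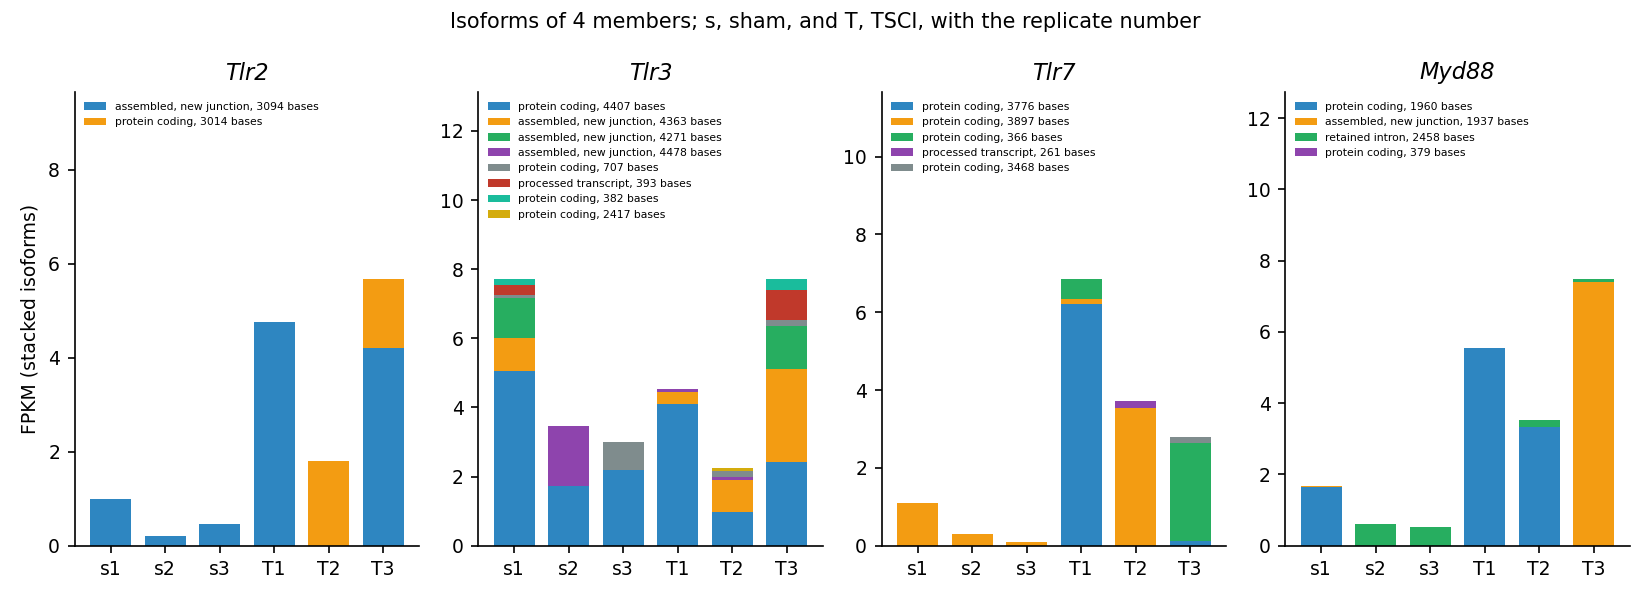
FPKM of the isoforms of Tlr2, Tlr3, Tlr7 and Myd88, stacked per library, with their type and length in bases; s marks sham and T marks TSCI with the replicate number. The bars of Tlr7 and Myd88 change colour between TSCI libraries, with the 366-base isoform of Tlr7 at 2.52 FPKM and the new-junction isoform of Myd88 at 7.41 FPKM in TSCI replicate 3.

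Marker genes of myeloid cells were read in the same libraries. In bulk tissue, more cells of a type and more RNA per cell cannot be told apart. The 10 general myeloid markers summed to 365 to 620 FPKM in TSCI and 57.4 to 116 in sham; 3 were called higher (Cd68, Itgam and Itgb2), none lower, and none was at 0 throughout a group. The 8 monocyte and macrophage markers summed to 434 to 2656 FPKM against 33.4 to 114, with 2 called higher (Arg1 and Msr1). The 8 resting microglia markers summed to 213 to 441 FPKM against 53.8 to 86.6, with 1 called higher (Fcrls). Siglech overlapped between the groups, at 0.472, 1.92 and 2.59 FPKM against 2.07, 4.42 and 5.09. At an unadjusted p under 0.05 (limma), 9 of the 10 general, 8 of the 8 monocyte and macrophage and 4 of the 8 microglia markers were higher. None of these was lower. Of all genes tested, 10% were higher at that p, and 0.878% were called higher. The 9 neutrophil markers summed to 116 to 491 FPKM against 16.9 to 273, with none called (limma; 2 at an unadjusted p under 0.05) and with Ly6g at 0 in each sham library. The 5 erythroid markers, which come with blood, summed to 9100 to 140399 FPKM against 3036 to 30562, with none called (limma; 1 at an unadjusted p under 0.05). Lists of B and plasmacytoid dendritic cells (16.5 to 30.9 FPKM against 4.80 to 12.2), T cells (0.86 to 1.89 against 0.22 to 2.27, Cd4 at 0 in each sham library), astrocytes (211 to 1307 against 193 to 1046), oligodendrocytes (1277 to 4938 against 879 to 6220), endothelium (23.6 to 59.3 against 6.55 to 20.5) and skeletal muscle (0.33 to 7.88 against 1.39 to 81.2) had no call by limma; at an unadjusted p under 0.05 these 6 lists had 3 genes higher, and 3 lower, all of the muscle list. The neuron markers above had no call either, with 1 of 7 higher at that p. The part of these cells in the receptor values was not tested.

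The genes were also set against the general myeloid markers, by ratios chosen after seeing the data and without a test. Per 100 FPKM of the 10 markers summed, Tlr3 was at 1.24, 0.361 and 1.67 in TSCI, below its 13.4, 3.42 and 2.59 in sham. Tlr3 was also below in every TSCI library when Tyrobp was left out of the sum, and per Itgam, per Itgb2 and per Cd68, the last without sham replicate 2, where Cd68 was listed at 0. Itgam, Itgb2 and Cd68 were taken because they were called higher in TSCI, and the summed markers were higher too. A gene without a difference between the groups, as Tlr3, falls against such markers, so these ratios add no separate evidence. Cd14 per 100 FPKM of the 10 markers was at 3.45, 3.58 and 5.19 in TSCI, above its 1.15, 0.792 and 1.11 in sham. That difference depended on 1 marker, since Tyrobp made up 20.4% to 83.2% of the sum by library. Without Tyrobp Cd14 was at 4.45, 11.4 and 8.21 against 1.44, 4.73 and 4.08, so the groups overlapped, as they did per Itgam, per Itgb2 and per Cd68. Tlr13 overlapped against the 10 markers (3.11, 1.40 and 2.97 against 2.16, 0.67 and 0.583), was above sham without Tyrobp (4.01, 4.46 and 4.70 against 2.72, 3.99 and 2.14) and below it per Cd68 (13.9, 10.8 and 15.5 against 32.6 and 15.9 in the sham libraries with Cd68). Per Itgam and per Itgb2 the groups of Tlr13 overlapped. The other 7 genes overlapped against the 10 markers, with or without Tyrobp. Against single markers, Myd88 was below sham per Itgam, per Itgb2 and per Cd68, and Tlr2, Tlr4 and Tlr9 were below it per Cd68. Tlr1 was above sham per Itgam, and the remaining ratios of these genes overlapped.

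The rest of the pathway was read from 8 lists of 73 genes in all, of which 70 were in the table and 66 were tested. Of these 66, 5 were called higher by limma and none lower, against 0.878% and 0.0119% of all genes tested. At an unadjusted p under 0.05, 29 were higher and none lower, against 10% and 1.76% of all genes. Among these 29, Ticam2, Irf5, Nlrc5, Tnfaip3 and all 9 target genes had a sham mean under 0.5 FPKM. They passed the filter through their TSCI values. In 31 of the 70 genes every TSCI library lay above every sham library and in none below, where all genes tested gave 13.4% above and 3.13% below. The 31 included Tlr5 and Acod1, whose means were too low for testing, while the shares cover tested genes only. The median log2 fold change of the 66 was 1.45, against 0.44 for all genes. The lists were written with earlier results known, and these counts describe them only.

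Ligands released in tissue injury included 2 of the 5 calls. Tnc, a matrix protein known to activate Tlr4, was at 56.1, 17.7 and 36.9 FPKM after injury against 2.14, 0.25 and 0.902 in sham (log2 fold change 4.59 ± 0.72, SE; limma, adjusted p = 0.0104). Saa3, an acute-phase protein, was at 17.5, 122 and 47.4 FPKM against 0.343, 4.27 and 1.14 (4.65 ± 0.83; limma, adjusted p = 0.0209). Both had widely spread values that did not overlap between the groups. The other 7 ligands tested had log2 fold changes above 0 and no call; S100a8, a neutrophil protein that binds Tlr4, overlapped widely (54.8, 236 and 79.4 FPKM against 6.30, 200 and 53.3).

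Target genes of the pathway held the other 3 calls among 11 tested. All 3 had a sham mean under 0.5 FPKM and passed the filter through their TSCI values. Il1b, a pyrogenic cytokine, was at 7.31, 13.4 and 14.2 FPKM after injury against 0.397, 0.331 and 0.104 in sham (log2 fold change 3.93 ± 0.65, SE; limma, adjusted p = 0.0153). Ptgs2, the inducible cyclooxygenase, was at 7.69, 5.42 and 13.6 FPKM against 0.487, 0.167 and 0.289 (3.45 ± 0.66; limma, adjusted p = 0.0274). Cxcl2, a neutrophil attractant, was at 6.16, 5.16 and 3.20 FPKM and listed at 0 in each sham library (limma, adjusted p = 0.0257). The TSCI libraries of these genes all lay above the sham libraries. Tnf (1.91, 2.38 and 1.41 FPKM after injury; limma, adjusted p = 0.103) and Ccl4 (4.11, 1.97 and 2.97; limma, adjusted p = 0.0542) were also listed at 0 in each sham library, without a call. Acod1 (0.558, 0.505 and 0.359 FPKM after injury) was likewise listed at 0 in each sham library, and its mean was too low for testing. Il12b was listed at 0 in all libraries but TSCI replicate 3, at 0.176.

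These 5 calls too depended on single libraries and on the processing. Without TSCI replicate 3 none of them remained (limma, adjusted p 0.117 to 0.277). Without TSCI replicate 2, of these 5 only that of Tnc did, the others being at 0.0672 for Il1b and Ptgs2, 0.0823 for Saa3 and 0.0865 for Cxcl2. Without TSCI replicate 1 Cxcl2 and Ptgs2 were at 0.0738 and 0.0798, and without sham replicate 2 at 0.0646 and 0.0735. Without sham replicate 3 Saa3, Il1b, Cxcl2 and Ptgs2 were at 0.0617, 0.0617, 0.1 and 0.105. Saa3 was at 0.152 with median-ratio scaling and 0.124 with quantile normalization, which put Cxcl2 at 0.0545. From annotated isoforms only, Saa3, Cxcl2 and Ptgs2 were at 0.0663, 0.0771 and 0.355. With all isoform classes summed the 4 genes other than Tnc were at 0.0668 to 0.131, and with no filter on low values all 5 were at 0.182 to 0.259 (limma, adjusted p throughout).

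The co-receptors and chaperones had no call among 9 tested, with 4 higher at an unadjusted p under 0.05 (limma), against 10% of all genes tested. Unc93b1, which carries the nucleic-acid receptors to endosomes, was at 23.5, 10.7 and 23.6 FPKM after injury against 4.35, 1.72 and 3.53 in sham (log2 fold change 2.41 ± 0.66, SE; limma, adjusted p = 0.112). Cd36, a scavenger receptor that assists Tlr2, was at 8.91, 7.64 and 18.8 FPKM against 0.628, 3.68 and 1.41 (adjusted p = 0.139, limma). In both genes, the 2 of lowest p in this list, the groups did not overlap. Every TSCI library lay above every sham library in 5 of the 9, against 13.4% of all genes tested. Of the other receptors, Tlr8 was at 0.354, 0.466 and 2.67 FPKM against 0.192, 0.666 and 0.113, with groups that overlapped.

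Downstream of the receptors no adaptor, kinase, ubiquitin ligase, transcription factor or inhibitor was called by limma. At an unadjusted p under 0.05 (limma), 11 of 36 tested were higher, against 10% of all genes tested. Their medians were 1.53 for 5 adaptors, 0.95 for 15 kinases and ubiquitin ligases, 1.17 for 8 transcription factors and 1.34 for 8 inhibitors. Pik3ap1, which links receptors to phosphoinositide kinase, was at 6.33, 2.98 and 5.53 FPKM after injury against 1.18, 0.68 and 0.599 in sham, and Ticam2, the bridging adaptor of Tlr4, at 1.47, 1.57 and 3.88 against 0.46, 0 and 0.463. Irf5, a transcription factor bound by Myd88, had the lowest p of these 36 (8.17, 4.58 and 4.08 FPKM against 1.13, 0 and 0.274; limma, adjusted p = 0.0835). Irf7, which drives interferon genes, was at 3.82, 7.31 and 10.0 FPKM against 1.43, 0 and 1.76. In these 4 genes the groups did not overlap. The kinases Map3k8 (adjusted p = 0.171, limma) and Ikbke (0.295) and the inhibitors Nlrc5 (0.265) and Tnfaip3 (0.335) also had every TSCI library above every sham library. The genes named here were the 2 of lowest p in each list. Every TSCI library lay above every sham library in 3 of 5 adaptors and 2 of 15 kinases and ubiquitin ligases. The same held in 3 of 8 transcription factors and 4 of 8 inhibitors, against 13.4% of all genes tested. Ticam2, Irf5, Nlrc5 and Tnfaip3 had a sham mean under 0.5 FPKM and passed the filter through TSCI. Tnfaip3, the deubiquitinase A20 that limits NF-kB, was at 1.75, 1.50 and 1.92 FPKM after injury against 0.442, 0.166 and 0.270 in sham.

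**Figure D5:**
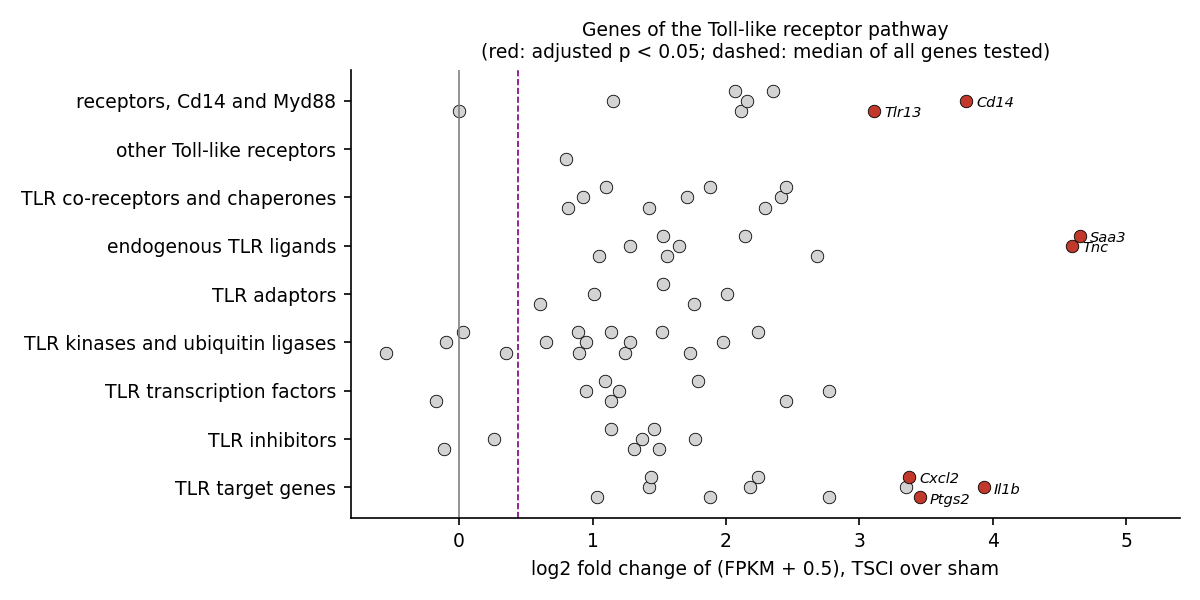
Log2 fold change of (FPKM + 0.5), TSCI over sham, of each tested gene of the pathway, 1 point per gene by list; red points passed an adjusted p of 0.05 and the dashed line is the median of all genes at 0.44. The 7 red points are Cd14, Tlr13, Saa3, Tnc, Cxcl2, Ptgs2 and Il1b, and most kinases and inhibitors lie between 0 and 2.

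The genes whose pattern over the 6 libraries was nearest to the mean pattern of the 8 tested genes were found by the root mean square difference of centred log2(FPKM + 0.5) values. These were Irgm1 (0.09), Frrs1 (0.10), Acta2 (0.11), Pik3ap1 (0.13) and Pdgfra (0.13). Irgm1, an interferon-inducible GTPase, was at 11.4, 6.56 and 12.4 FPKM after injury against 2.64, 1.39 and 1.31 in sham. Of the 8 genes themselves Myd88 was nearest to that mean (0.16), followed by Tlr2 (0.25) and Tlr1 (0.27), and Tlr3 (1.09) and Cd14 (1.02) were farthest from it.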

How the data were processed

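Total RNA was depleted of ribosomal RNA and made into stranded libraries, per the labels' protocols. HISAT2, StringTie and TopHat are named in the submitters' processing notes, without versions. No source used here names the genome build; of the Ensembl isoforms also listed in GENCODE M21 (GRCm38), 94.6% sat at identical coordinates. The deposited isoform table holds FPKM and coverage (signal) per library, made by the authors. The ratio of FPKM to coverage, fixed for each library, was used to compute aligned bases.

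FPKM were summed per gene name over isoforms of class =, j, c, o and e (annotated isoforms, those with new junctions, and those contained in or overlapping exons of a gene), which leaves out intronic, antisense and nearby ones. limma 3.58.1 (R 4.3.3) with a variance trend was fitted to log2(FPKM + 0.5) of all 16740 genes with a mean of at least 0.5 FPKM, p-values adjusted by Benjamini-Hochberg, threshold 0.05; the prior degrees of freedom were 10 beside 4 residual. Isoforms were fitted in the same way. The limma fit alone was tried on simulated log values with known changes, without the filter or the alternatives. Those values held no differences between lanes or depths. An exact 0 can be a failed estimate and is given by library. The members and lists were chosen with earlier results of these data known. Named genes were all 10 members, of each pathway list the genes past the threshold or else up to 2 of lowest p, members' isoforms with a mean of at least 0.5 FPKM, and the 5 genes nearest in pattern; S100a8, Tnf, Il12b, Ccl4 and Acod1 were named after their values were seen. Of the list genes, Lrrc33, Tlr11 and Ifnb1 were not analysed here. Alternatives were other pseudocounts (0.1 and 1), filters, scalings, class codes, the replicate number or lane 8 as a covariate, array weights, and each library left out; isoforms of at least 500 bases only was added after seeing the data. The circular RNA table was read for host genes only.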

Additional observations from a re-analysis of the deposited data

Results flagged for a closer look

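A transcript assembled just beyond the 3′ end of Tlr7, outside the classes summed above, had signal in each TSCI library above the sham libraries. This single-exon isoform of 1122 bases lies on chromosome X, 167303281 to 167304402, on the strand of Tlr7. The TSCI replicates read 2.23, 0.402 and 1.73 FPKM, and the sham replicates 0.272, 0 and 0. The difference was not tested, and whether it belongs to the Tlr7 transcript was not tested.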

How the results depend on the processing

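The counts of calls moved with the processing, while the fold changes of Cd14, Tlr13, Tlr1, Tlr2, Tlr4, Tlr7 and Myd88 were above 0 in all 20 alternatives. Cd14 ranged from 3.28 to 4.27 and passed in 14 of 20, Tlr13 from 2.64 to 3.58 and passed in 12 of 20, and Tlr3 from -0.52 to 0.93, with no call (limma). Against 149 genes, 2 of the 10 genes described, 5 other pathway genes and 14 isoforms past the threshold, no filter on low values gave 0, 0, 0 and 0, median-ratio scaling 71, 1, 4 and 6, and quantile normalization 61, 1, 3 and 0. All class codes gave 24, 0 and 1, and class = isoforms only 43, 1 and 2. Lane 8 as a covariate gave 644 genes (602 higher, 42 lower), 3 (Tlr7 added), 15 and 0 isoforms; leaving out both lane 8 libraries gave 616 (487 higher, 129 lower), 2, 8 and 0. Array weights, whose estimation stopped before it converged, gave 7427, 6, 49 and 566, with 2 isoforms of the 10 genes past the threshold against 0. Isoforms of at least 500 bases gave 231 genes. With pseudocounts of 0.1 and 1, 23 and 7 isoforms passed, and 22 with a mean of at least 1 FPKM.

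With the replicate number as a block, 963 genes passed (846 higher, 117 lower), with 6 of the 10 genes described (Tlr1, Tlr2, Tlr7 and Myd88 added), 19 other pathway genes and 0 isoforms. The correlations of deviations between same-numbered libraries were 0.49, 0.28 and 0.08, and TSCI replicate 2 correlated best with sham replicate 3 (0.36), so the numbers were not taken to pair the libraries.

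Leaving out single libraries gave 14 to 1448 genes, 0 to 6 of the 10 genes, 0 to 19 pathway genes and 0 to 47 isoforms. Without TSCI replicates 1 to 3 the genes were 88, 40 and 14, and without sham replicates 1 to 3 they were 1448 (1196 higher, 252 lower), 50 and 48. Reversals were seen in isoforms only: the coding isoform of Tlr3 of 4407 bases, at -0.25, was at 0.19 without TSCI replicate 2 and 0.14 without sham replicate 1 (single libraries left out, -0.64 to 0.19), and the Tlr7 isoform of 3897 bases, at 0.25, was at -0.04 with a pseudocount of 0.1, -0.03 after quantile normalization and -0.06 without sham replicate 3 (single libraries left out, -0.06 to 0.81). The causes were not tested. Levels under about 0.5 FPKM, as of Tlr6 and Tlr9, limit what can be compared.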

Other observations

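Assembled isoforms within the introns of Tlr4, which the gene values leave out, summed to 18.1, 0.999 and 1.67 FPKM in TSCI replicates 1 to 3 and to 0.246, 1.64 and 0 in sham. TSCI replicate 1, which was also the highest library for Tlr4 itself, held most of this signal. With all class codes the log2 fold change of Tlr4 was 1.92, against 1.15 from the reference classes. None of the 17440 circular RNAs of the deposited table had any of the 10 genes as its host.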
